A study of Rattus norvegicus with 9 samples.

Results

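Laminins, the cross-shaped glycoproteins of basement membranes, and integrins, the cell surface receptors that bind matrix and other cells, were followed at the RNA level in rat spinal cord. All rows of the deposited gene table whose symbol is Lama, Lamb or Lamc with a digit from 1 to 5, Itga with any suffix, or Itgb with a digit from 1 to 8 were taken. The rule gave 35 of 32623 genes, 10 laminin chains and 25 integrin subunits, of which 19 were sorted by their known ligands as matrix integrins and 6 as leukocyte integrins. The animals were 8-week-old female Wistar rats of 200 to 230 g, with 3 libraries in each of 3 groups. Sham rats had their lamina opened over an uninjured cord. The C_Spinal rats had a cord injury and were given distilled water by gavage, and the T_Spinal rats had a cord injury and were given 3 mL of Modified Erxian Decoction, a herbal mixture, by gavage once a day. The labels do not give the time, the level or the method of injury, the piece of cord dissected, a batch, or whether the libraries of a group are separate animals, so the p-values cover the spread among libraries, and that spread may be technical.

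A laminin molecule is a trimer of an alpha, a beta and a gamma chain, and the alpha chain carries the main sites for cell receptors. In nerve tissue laminins line blood vessels, the glial border of the cord, the meninges and the Schwann cells of the roots. An integrin is a pair of an alpha and a beta subunit. The beta1 subunit pairs with many alpha subunits that bind laminin, collagen or fibronectin, the beta4 subunit pairs with alpha6 and binds laminin, and the beta2 subunit is restricted to leukocytes, microglia among them, and pairs with alphaL, alphaM or alphaX.

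Total counts were 57 to 69.8 M (1 M is 1e+06) in Sham, 59.1 to 67.3 M in C_Spinal and 61.8 to 69.4 M in T_Spinal. Levels are given as FPKM, which is fragments per kilobase and per M fragments. Differences are log2 fold changes from an edgeR quasi-likelihood fit of the counts of all 9 libraries, with a standard error (SE). A gene was called at a Benjamini-Hochberg adjusted p under 0.05 over the 14791 genes that had a mean FPKM of at least 1. The fit scales each library by the bulk of its genes, so a fold change can differ slightly from the ratio of the FPKM. The spinal cord markers were present in each group: the summed FPKM of 9 neuron genes was 1715 to 1755 in Sham, 188 to 197 in C_Spinal and 298 to 301 in T_Spinal, and that of 9 oligodendrocyte genes 26842 to 27060, 8035 to 8114 and 9787 to 9949. In bulk tissue, fewer cells of a type and less RNA per cell cannot be told apart.

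Of the 35 genes, 28 reached the expression minimum: 8 laminin chains, 15 matrix integrin subunits and 5 leukocyte integrin subunits. Their counts per library ran from 44, for Itgax, to 30292, and the 7 others are described separately. In C_Spinal against Sham, 21 of the 28 were higher, 3 lower and 4 not called, beside 38.1% of all tested genes called higher and 37.4% lower. In T_Spinal against C_Spinal, 9 were higher, 10 lower and 9 not called, beside 20.7% and 17.9% of all tested genes. In T_Spinal against Sham the counts were 21 higher, 3 lower and 4 not called, beside 35% and 36.6%. The same shares of all tested genes are the background for the counts of the partner and marker lists given further on. These comparisons share libraries and are not independent of each other. The 3 classes had different counts in T_Spinal against C_Spinal: of the laminins 7 were lower and 0 higher, of the matrix integrins 3 were lower and 5 higher, and of the leukocyte integrins 0 were lower and 4 higher. The 5 matrix integrins include Itga4, which is also a subunit of lymphocytes and monocytes and whose call was lost in several alternative fits.

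**Figure D1:**
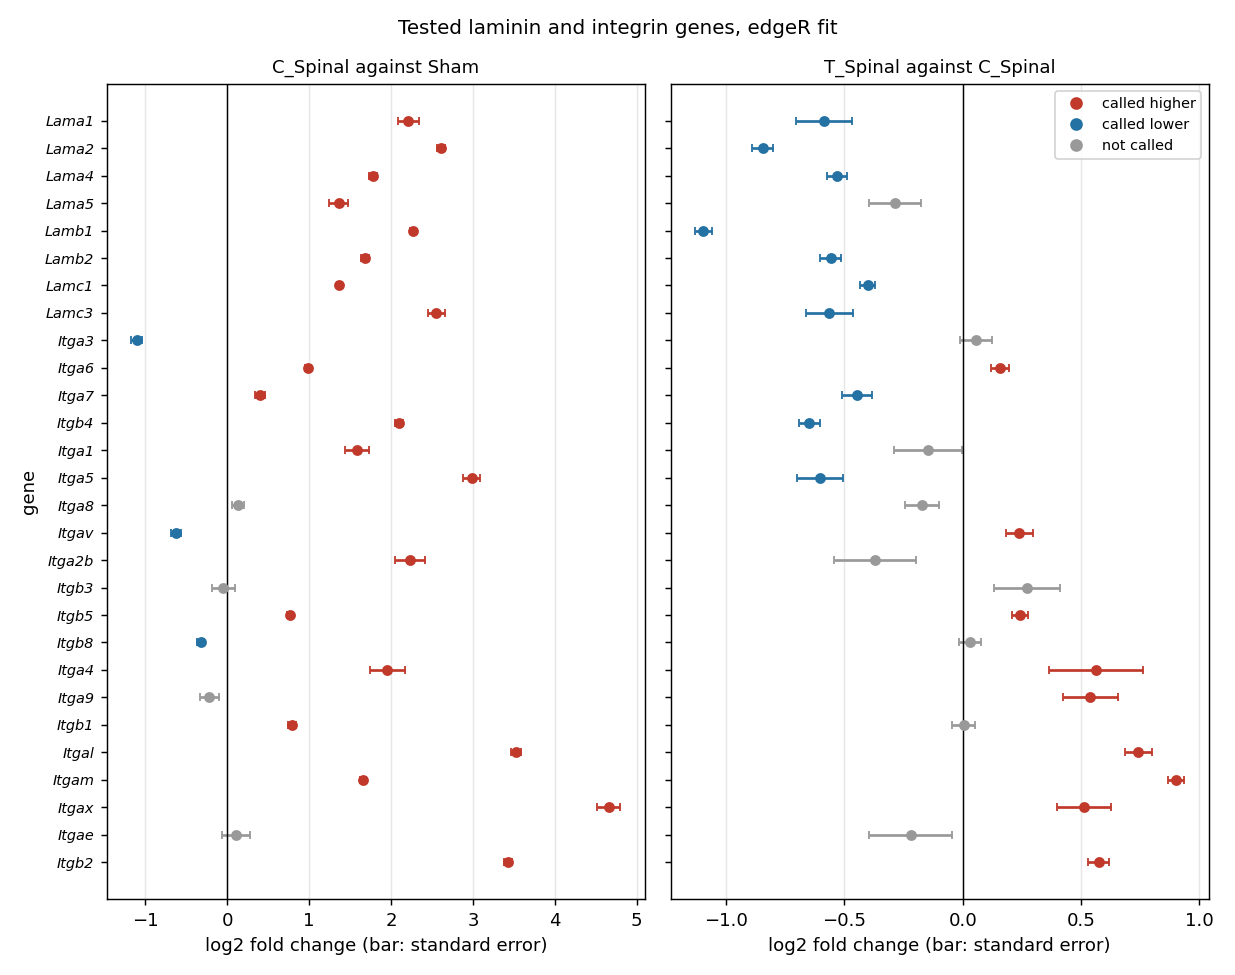
Log2 fold changes of the 28 tested laminin and integrin genes in C_Spinal against Sham (left) and T_Spinal against C_Spinal (right), from the edgeR fit, with bars of 1 standard error. Points are coloured by whether the gene was called higher, lower or neither. The laminins lie to the right of 0 in the left panel and to the left of 0 in the right panel, while Itgal, Itgam, Itgax and Itgb2 lie to the right of 0 in both.

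Promoter sequences were read for the chains of a laminin trimer of muscle and peripheral nerve (Lama2, Lamb1 and Lamc1), which moved in the same directions in both injury comparisons, and for 2 neighbouring genes of the leukocyte class (Itgam and Itgax). RefSeq promoters on the GRCr8 assembly were found for 27 of the 35 genes. Each line gives the 250 bases before the gene start on the gene's own strand, at chr1:19491896-19492145 (+) for Lama2, chr6:53562846-53563095 (+) for Lamb1, chr13:68051987-68052236 (-) for Lamc1, chr1:192089342-192089591 (+) for Itgam and chr1:192149799-192150048 (+) for Itgax. Capitals mark matches, on either strand, to 3 motifs: the GC box GGGCGG, which Sp1 binds, the core GAGGAA of sites of the myeloid factor PU.1, and the AP-1 site TGAGTCA.
Lama2: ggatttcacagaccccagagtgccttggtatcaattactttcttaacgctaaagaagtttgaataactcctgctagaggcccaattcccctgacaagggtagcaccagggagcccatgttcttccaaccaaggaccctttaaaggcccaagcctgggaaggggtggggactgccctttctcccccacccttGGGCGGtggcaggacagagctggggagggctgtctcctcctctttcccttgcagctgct
Lamb1: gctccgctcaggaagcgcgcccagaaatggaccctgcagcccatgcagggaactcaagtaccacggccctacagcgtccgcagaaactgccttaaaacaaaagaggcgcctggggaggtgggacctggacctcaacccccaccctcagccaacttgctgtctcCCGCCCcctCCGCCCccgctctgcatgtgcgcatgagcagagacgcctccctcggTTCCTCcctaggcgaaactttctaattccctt
Lamc1: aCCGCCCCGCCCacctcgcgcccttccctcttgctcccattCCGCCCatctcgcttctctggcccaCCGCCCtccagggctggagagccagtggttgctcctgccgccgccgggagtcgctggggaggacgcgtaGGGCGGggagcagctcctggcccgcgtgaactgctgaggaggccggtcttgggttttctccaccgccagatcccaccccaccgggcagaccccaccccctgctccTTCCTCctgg
Itgam: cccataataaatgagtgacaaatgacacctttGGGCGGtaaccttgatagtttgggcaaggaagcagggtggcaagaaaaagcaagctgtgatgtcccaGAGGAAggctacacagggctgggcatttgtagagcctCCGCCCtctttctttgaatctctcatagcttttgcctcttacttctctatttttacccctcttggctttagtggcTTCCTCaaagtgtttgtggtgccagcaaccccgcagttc
Itgax: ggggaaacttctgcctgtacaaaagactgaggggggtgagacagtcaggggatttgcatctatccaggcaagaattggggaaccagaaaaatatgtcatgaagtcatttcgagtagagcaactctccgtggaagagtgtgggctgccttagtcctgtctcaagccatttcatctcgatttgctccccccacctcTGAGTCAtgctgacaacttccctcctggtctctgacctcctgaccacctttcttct
The GC box was found 1 time before Lama2, 2 times before Lamb1 and 5 times before Lamc1, where 1 pair of matches overlaps. The PU.1 core was found 1 time each before Lamb1 and Lamc1. Itgam, which encodes the alpha subunit of complement receptor 3, had 2 GC boxes and 2 PU.1 cores, and Itgax had 1 AP-1 site and neither of the others. Of 33469 promoter windows of the same length, 30.5% held a GC box, 23.3% a PU.1 core and 4.05% an AP-1 site. These are letter matches and say nothing of binding in these samples.

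C_Spinal was set against Sham to ask how the injured cord differed from the intact cord. All 8 tested laminin chains were higher in C_Spinal, with a median log2 fold change of 2.0, beside 0.02 over all tested genes. Lama2 (chr1:18491384-19143269, + strand, in the coordinates of the deposited table, whose genome build is not given in the sources used here) encodes the alpha2 chain of muscle and Schwann cell basement membranes. It stood at 2.86, 3.24 and 3.00 FPKM in the Sham libraries, 19.6, 20.1 and 20.9 in C_Spinal and 11.6, 11.6 and 11.4 in T_Spinal. The groups did not overlap, and T_Spinal lay between the other two. The log2 fold change in C_Spinal against Sham was 2.61 (SE 0.0485, edgeR adjusted p = 1.49e-11).

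Lama1 (chr9:115916907-116042123, +) encodes the alpha1 chain of embryonic and meningeal basement membranes. Its level was 0.602, 0.636 and 0.821 FPKM in Sham, 3.32, 3.57 and 3.49 in C_Spinal and 2.19, 2.67 and 2.22 in T_Spinal. Every C_Spinal library was above every T_Spinal library, and both above Sham, with a log2 fold change of 2.21 (SE 0.123, edgeR adjusted p = 5.12e-08) in C_Spinal against Sham. Lama4 (chr20:44060731-44209614, +), the alpha4 chain of blood vessels, was at 5.0, 5.49 and 5.59 FPKM in Sham, 19.8, 20.2 and 20.1 in C_Spinal and 14.1, 13.9 and 14.7 in T_Spinal. It was the alpha chain with the highest FPKM in Sham, and it rose by 1.78 (SE 0.0448) in C_Spinal. Lama5 (chr3:175553045-175601127, -), the alpha5 chain of mature vessels and epithelia, was at 1.46, 2.04 and 1.60 FPKM in Sham, 4.56, 4.61 and 5.06 in C_Spinal and 4.15, 4.0 and 3.82 in T_Spinal. Here the injured groups lay close together, well above Sham, and the rise in C_Spinal was 1.36 (SE 0.112, edgeR adjusted p = 1.2e-06).

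Both tested beta chains followed. Lamb1 (chr6:50528823-50596079, +), the beta1 chain common to many laminins, was at 5.68, 5.98 and 5.97 FPKM in Sham, 30.3, 31.8 and 30.0 in C_Spinal and 14.6, 14.9 and 14.7 in T_Spinal. The T_Spinal libraries lay far below the C_Spinal libraries and above every Sham library. The rise in C_Spinal against Sham was 2.26 (SE 0.0362, edgeR adjusted p = 5.39e-12). Lamb2 (chr8:117268337-117280517, +), the beta2 chain of synapses and vessels, was the laminin gene with the highest FPKM in each group, at 18.5, 19.2 and 19.6 in Sham, 69.3, 64.0 and 67.2 in C_Spinal and 47.7, 47.8 and 44.2 in T_Spinal. Its rise in C_Spinal was 1.68 (SE 0.0443).

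Lamc1 (chr13:70658707-70783515, -) encodes the gamma1 chain, the gamma chain of most laminins. Its level was 14.1, 14.1 and 14.6 FPKM in Sham, 39.5, 40.1 and 40.6 in C_Spinal and 31.6, 31.6 and 30.2 in T_Spinal, with no overlap of groups. The rise in C_Spinal against Sham was 1.37 (SE 0.0316, edgeR adjusted p = 6.42e-11). Lamc3 (chr3:9267122-9326993, -), the gamma3 chain, was at 1.91, 1.69 and 1.40 FPKM in Sham, 10.3, 10.8 and 10.9 in C_Spinal and 7.25, 7.87 and 7.09 in T_Spinal. Its rise of 2.55 (SE 0.107) exceeded that of Lamc1. A second row of the table, described as gamma-3-like, may be a copy of Lamc3, so reads could be split between them and the Lamc3 values are uncertain.

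**Figure D2:**
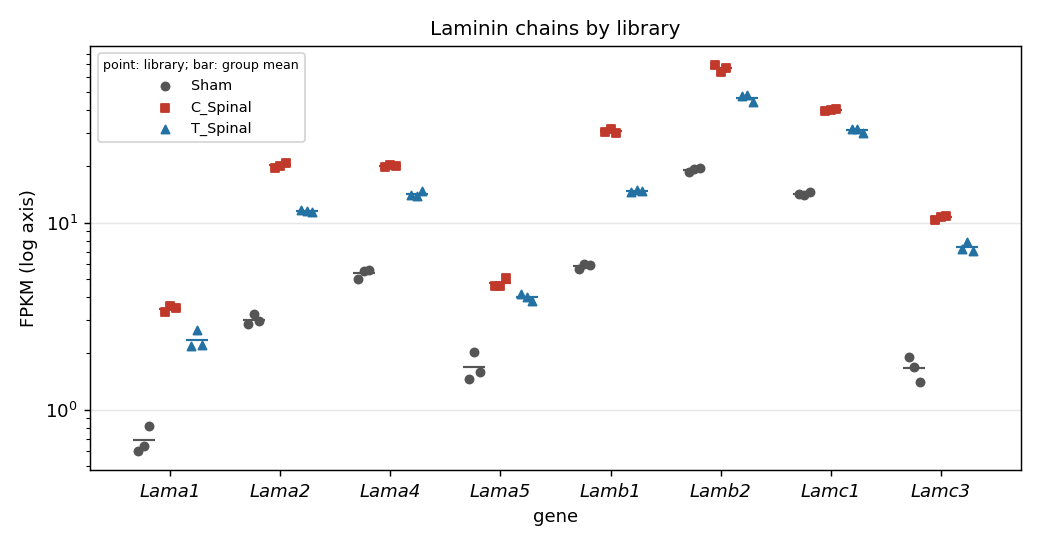
FPKM of the 8 tested laminin chains in each library, on a log axis, with points for libraries and bars for group means. For each chain the Sham libraries lie lowest, the C_Spinal libraries highest and the T_Spinal libraries between them.

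T_Spinal was set against C_Spinal to ask what differed in the injured cord when the decoction was given. Of the 8 laminin chains, 7 were lower in T_Spinal and 1 was not called, with a median log2 fold change of -0.56. Lamb1 had the largest difference, -1.10 (SE 0.0347, edgeR adjusted p = 2.57e-08), followed by Lama2 at -0.85 (SE 0.0456, adjusted p = 7.66e-07). Lama1, Lama4, Lamb2, Lamc3 and Lamc1 were at -0.59 (SE 0.117), -0.53 (SE 0.0433), -0.56 (SE 0.0432), -0.56 (SE 0.10) and -0.40 (SE 0.0310), with adjusted p values of 7.22e-06 to 0.00314. Lama5 had -0.29 (SE 0.109, edgeR adjusted p = 0.0632), although its 3 T_Spinal libraries all lay below the 3 C_Spinal libraries. Without Sham replicate 1 or Sham replicate 2, which enter through the shared estimate of spread, its adjusted p was 0.0363 or 0.00757. Of the 8 differences, that of Lamb1 exceeded 2-fold. Of all 14791 tested genes, 234 were called higher and 264 lower by at least 2-fold in this comparison.

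All 8 chains were still higher in T_Spinal than in Sham, with a median log2 fold change of 1.21. The range was 0.97 (SE 0.0314, edgeR adjusted p = 1.01e-09) for Lamc1 to 1.99 (SE 0.105, adjusted p = 4.2e-08) for Lamc3. Lama2 was at 1.77, Lama1 at 1.63, Lama4 at 1.25, Lamb1 at 1.17, Lamb2 at 1.12 and Lama5 at 1.07.

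Summed over the 10 chains, laminin FPKM was 52.0 ± 1.37 (SD, n = 3) in Sham and 197 ± 1.43 in C_Spinal, with T_Spinal between them at 132 ± 3.24. The makeup of the sum also differed. Lama2 made up 28.1% ± 0.814 of alpha chain FPKM in Sham, against 41.7% ± 0.425 in C_Spinal and 35.9% ± 0.449 in T_Spinal. Lama4 made up 49.8% ± 1.43, 41.4% ± 0.719 and 44.3% ± 1.33 in the same order, so that Lama2 and Lama4 were level in C_Spinal, where their shares differed by less than 1 SD of Lama4. Lama5 went from 15.7% ± 1.90 to 9.78% ± 0.376 and 12.4% ± 0.554, and the shares of Lama1, at 6.37% ± 0.974, 7.14% ± 0.183 and 7.36% ± 0.820, overlapped between groups. Lamb1 made up 23.2% ± 0.157 of beta chain FPKM in Sham, against 31.4% ± 1.44 in C_Spinal and 24.0% ± 0.807 in T_Spinal, where it lay within its spread of the Sham share. Lamc3 held 10.4% ± 1.55, 20.9% ± 0.208 and 19.1% ± 0.660 of gamma chain FPKM. With 3 libraries against 3, an exact two-sided permutation test of a share cannot go below p = 0.10, so no test is given for shares.

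**Figure D3:**
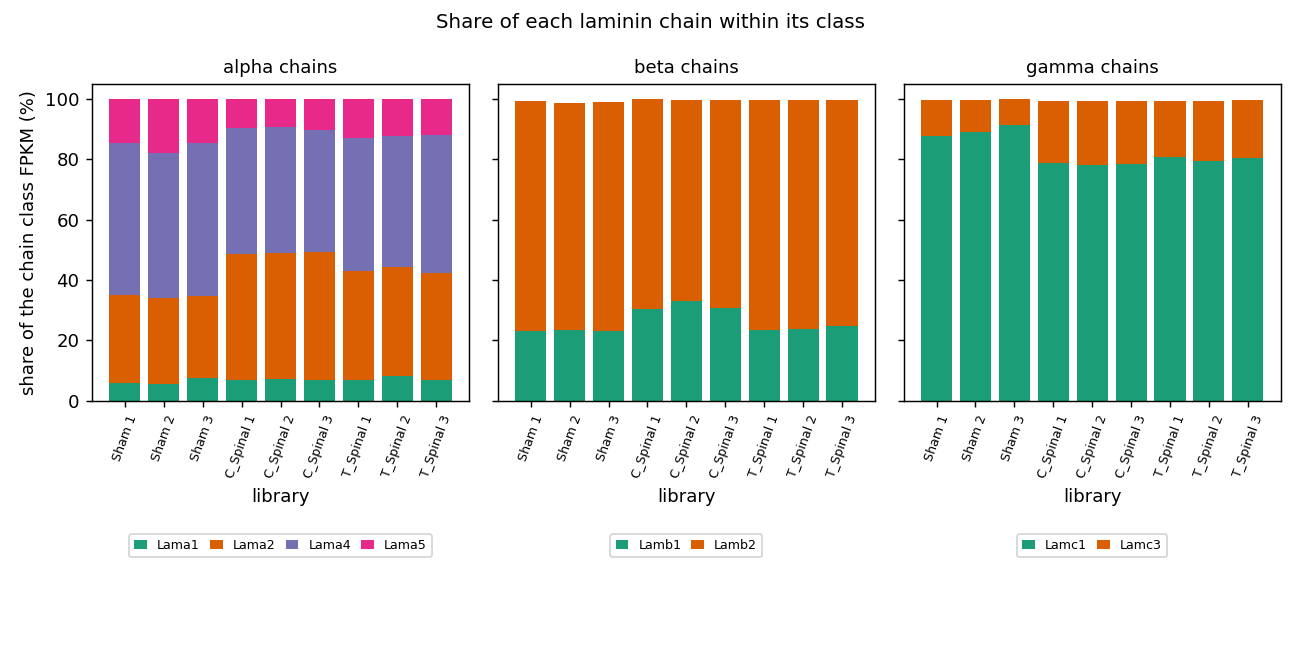
Share of each laminin chain in the FPKM of its class (alpha, beta or gamma), in percent, as stacked bars for the 9 libraries. Chains under the expression minimum are not drawn, so bars can end below 100%. The Lama2 and Lamb1 shares are largest in the 3 C_Spinal libraries, and the Lamc3 share is larger in all 6 injured libraries than in Sham.

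Markers of several cell types moved alongside the laminins in most cases, and those of astrocytes did not. All 11 tested fibroblast and meningeal markers were higher in C_Spinal than in Sham and lower in T_Spinal than in C_Spinal, with summed FPKM of 1485 to 1510 in Sham, 6240 to 6349 in C_Spinal and 3398 to 3520 in T_Spinal. Of 12 Schwann cell markers, 11 were higher and 1 lower in C_Spinal against Sham, and all 12 were lower in T_Spinal against C_Spinal. Their sum was 619 to 634 FPKM in Sham, 1235 to 1254 in C_Spinal and 398 to 422 in T_Spinal, and in T_Spinal against Sham 3 of the 12 were higher, 7 lower and 2 not called. Of 9 tested endothelial markers, 7 were higher and 1 lower in C_Spinal against Sham, and 0 were higher and 5 lower in T_Spinal against C_Spinal. The 10 genes of that list with a row summed to 83.9 to 85.6, 168 to 173 and 133 to 135 FPKM. Cldn5, a defining gene of that list, had no counts in any library. Of 10 pericyte and smooth muscle markers, 6 were higher and then 4 lower (133 to 148, 274 to 288 and 230 to 237 FPKM). Of 9 astrocyte markers, 2 were higher and 5 lower in C_Spinal against Sham (median log2 fold change -0.31). In T_Spinal against C_Spinal 5 of them were higher and 1 lower (median 0.13). Their sum was 5417 to 5673 FPKM in Sham, 6210 to 6283 in C_Spinal and 6595 to 6865 in T_Spinal. The part of these cell types in the laminin differences was not tested.

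Partners of laminin in the basement membrane moved the same way in most cases. Of 13 tested genes of this list, 11 were higher and 1 lower in C_Spinal against Sham (median log2 fold change 1.99), 2 higher and 10 lower in T_Spinal against C_Spinal (median -0.59), and 10 higher and 2 lower in T_Spinal against Sham (median 1.34). Col18a1, the core of a basement membrane collagen that carries heparan sulfate, was at 4.23, 4.17 and 4.71 FPKM in Sham, 51.4, 48.1 and 49.6 in C_Spinal and 29.6, 29.5 and 27.5 in T_Spinal. Its log2 fold change was 3.39 (SE 0.0561) in C_Spinal against Sham and -0.82 (SE 0.0508) in T_Spinal against C_Spinal. Nid2, a nidogen that links laminin to type IV collagen, was at 4.27, 4.26 and 4.58 FPKM in Sham, 36.0, 36.9 and 36.6 in C_Spinal and 18.1, 19.5 and 18.8 in T_Spinal. It rose by 2.94 (SE 0.0426) in C_Spinal and had -0.99 (SE 0.0395, edgeR adjusted p = 1.27e-07) in T_Spinal against C_Spinal. Col15a1, a relative of Col18a1, had 3.28 and -0.82 in these comparisons. Against Sham, the matrix glycoprotein Fbln1 and the type IV collagen chain Col4a6 were higher in T_Spinal, by 2.62 and 2.47. The 2 genes higher in T_Spinal than in C_Spinal, looked up after the counts were seen, were Col4a3 (0.64, SE 0.147) and Col4a4 (0.34, SE 0.0597), type IV collagen chains that share a network.

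Laminin receptors other than integrins differed less. Of 18 tested, 12 were higher and 4 lower in C_Spinal against Sham (median 0.49), 1 higher and 8 lower in T_Spinal against C_Spinal (median -0.08), and 9 higher and 5 lower in T_Spinal against Sham (median 0.18). Sdc1, a syndecan that carries heparan sulfate, was at 0.503, 0.802 and 0.937 FPKM in Sham, 11.9, 9.60 and 11.2 in C_Spinal and 11.9, 11.6 and 11.3 in T_Spinal, and rose by 3.74 (SE 0.188) in C_Spinal. Its injured groups overlapped. Sdc4, a syndecan of focal adhesions, rose by 1.11 (SE 0.0443). Bcam, a receptor for the laminin alpha5 chain, had a mean of 20.1 FPKM in C_Spinal and 14.2 in T_Spinal, a difference of -0.54 (SE 0.0819). Sntb1, a syntrophin of the dystrophin complex, had -0.71 (SE 0.155). Sgcd, a sarcoglycan of the same complex, had 1.21 (SE 0.244) in C_Spinal against Sham and -0.87 (SE 0.242, edgeR adjusted p = 0.0170) in T_Spinal against C_Spinal, and without C_Spinal replicate 3 the latter was -0.70 with adjusted p = 0.0694. Sgce and Rpsa, the latter a ribosomal protein also described as a laminin receptor, were higher in T_Spinal than in Sham by 0.93 and 0.92.

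The integrin subunits that bind laminin did not share a direction. Itgb4 (chr10:104523996-104561078, +), the partner of alpha6 in hemidesmosomes, Schwann cells and vessels, was at 11.1, 10.5 and 11.8 FPKM in Sham, 51.8, 49.8 and 53.8 in C_Spinal and 34.2, 34.0 and 33.5 in T_Spinal. The groups did not overlap, in the same order as for the laminins. Its log2 fold change was 2.10 (SE 0.0468, edgeR adjusted p = 5.18e-11) in C_Spinal against Sham, -0.65 (SE 0.0449, adjusted p = 3.60e-06) in T_Spinal against C_Spinal and 1.45 (SE 0.0459) in T_Spinal against Sham. Galk1 overlaps Itgb4 on the opposite strand, and whether the counting used strand is not given in the sources used here.

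Itga6, the alpha6 subunit, was at 19.4, 20.4 and 19.0 FPKM in Sham, 42.1, 42.7 and 41.8 in C_Spinal and 46.0, 48.7 and 50.2 in T_Spinal. Unlike Itgb4, it was highest in T_Spinal, with 0.98 (SE 0.0393) in C_Spinal against Sham and 0.16 (SE 0.0389, edgeR adjusted p = 0.00939) in T_Spinal against C_Spinal. Itga7, the alpha7 subunit of muscle and glia, was at 6.53, 6.49 and 7.06 FPKM in Sham, 9.05, 9.75 and 10.1 in C_Spinal and 7.06, 7.70 and 6.95 in T_Spinal. It rose by 0.40 (SE 0.0636) in C_Spinal and had -0.45 (SE 0.0635, adjusted p = 0.000406) in T_Spinal against C_Spinal, and T_Spinal overlapped Sham (-0.05, SE 0.0636, adjusted p = 0.543). The sign of this last difference was the opposite with total counts as the scale (0.11). Itga3, the alpha3 subunit, was at 7.64, 7.90 and 8.01 FPKM in Sham, 3.69, 4.16 and 4.07 in C_Spinal and 4.2, 4.48 and 4.03 in T_Spinal. It fell by 1.10 on the log2 scale (SE 0.0677, edgeR adjusted p = 1.12e-07) in C_Spinal against Sham, the largest fall of any tested member, and the injured groups overlapped.

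Itgb1 (chr19:61677542-61725535, +), the beta1 subunit, had the highest FPKM of the 35 genes in all 3 groups. It was at 58.5, 54.7 and 55.1 FPKM in Sham, 103.0, 110.5 and 104.0 in C_Spinal and 103.2, 107.7 and 115.6 in T_Spinal. The injured groups overlapped each other and not Sham. The rise in C_Spinal was 0.79 (SE 0.0474, edgeR adjusted p = 9.11e-08), and T_Spinal differed from C_Spinal by 0.00 (SE 0.0471, adjusted p = 0.962).

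Collagen receptors were low. Itga1, the alpha1 subunit, was at 0.997, 0.795 and 0.676 FPKM in Sham, 2.77, 2.90 and 2.44 in C_Spinal and 2.51, 2.42 and 2.57 in T_Spinal. It rose by 1.59 (SE 0.148, edgeR adjusted p = 3.36e-06) in C_Spinal, and the injured groups overlapped. Pelo lies within the Itga1 row on the same strand and had more counts (a mean of 1357 against 562), so the Itga1 values are uncertain.

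Integrins of a further class bind the RGD motif of fibronectin, vitronectin and related proteins. Of their 7 tested subunits, 3 were higher and 2 lower in C_Spinal against Sham, beside 38.1% and 37.4% of all tested genes. In T_Spinal against C_Spinal, 2 were higher and 1 lower, beside 20.7% and 17.9%. These counts lay near the shares over all tested genes. Itga5 (chr7:144970444-144993652, -), the alpha subunit of the main fibronectin receptor, was at 1.06, 1.26 and 1.39 FPKM in Sham, 10.3, 11.1 and 10.5 in C_Spinal and 7.43, 7.58 and 6.55 in T_Spinal. Of the tested matrix integrins it had the largest fold change in C_Spinal against Sham, 2.98 (SE 0.105, edgeR adjusted p = 1.42e-09), and it was lower in T_Spinal by -0.60 (SE 0.0961, adjusted p = 0.000845). Itgav, the alphaV subunit that pairs with several beta subunits, was at 25.5, 25.9 and 25.5 FPKM in Sham, 18.2, 19.2 and 16.9 in C_Spinal and 20.4, 22.1 and 23.2 in T_Spinal. It moved opposite to Itga5, with -0.62 (SE 0.0574) in C_Spinal against Sham and 0.24 (SE 0.0573, adjusted p = 0.00847) in T_Spinal against C_Spinal.

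The beta subunits that pair with alphaV moved separately. Itgb5, the beta5 subunit, was at 20.5, 21.6 and 20.5 FPKM in Sham, 38.8, 37.8 and 39.5 in C_Spinal and 46.5, 46.1 and 48.1 in T_Spinal, with rises of 0.77 (SE 0.0338) and 0.24 (SE 0.0335, edgeR adjusted p = 0.000350) from each group to the next. Itgb8, the beta8 subunit of astrocytes and microglia, which takes part in TGF-beta activation, was at 16.0, 16.5 and 17.0 FPKM in Sham, 14.4, 13.9 and 14.8 in C_Spinal and 14.4, 15.4 and 15.3 in T_Spinal. It was lower in C_Spinal by -0.32 (SE 0.0451, adjusted p = 7.77e-05), and the injured groups overlapped. Itgb3, the beta3 subunit of platelets and osteoclasts, was at 1.39 to 1.60 FPKM in Sham, 1.41 to 1.64 in C_Spinal and 1.82 to 2.07 in T_Spinal. It was not called in any comparison of the main edgeR fit. In T_Spinal against Sham its difference of 0.22 (SE 0.140, adjusted p = 0.181) passed the threshold with total counts as the scale (0.38, adjusted p = 0.0329) and with limma at 3 settings of the FPKM scale (adjusted p of 0.00407 to 0.0276). In T_Spinal against C_Spinal its difference of 0.27 (SE 0.140, edgeR adjusted p = 0.156) passed at the same 3 limma settings (adjusted p of 0.00805 to 0.0266).

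Itga2b, the alphaIIb subunit of platelets and megakaryocytes, was at 0.609, 0.578 and 0.387 FPKM in Sham, 2.99, 2.61 and 2.50 in C_Spinal and 1.98, 2.20 and 2.25 in T_Spinal. It rose by 2.23 (SE 0.182, edgeR adjusted p = 1.14e-06) in C_Spinal, and the difference of T_Spinal from C_Spinal was -0.37 (SE 0.172, adjusted p = 0.117), or -0.37 with adjusted p = 0.0369 without Sham replicate 3. Of 9 platelet markers 2 reached the expression minimum and both were higher in C_Spinal. The summed FPKM of all 9 was 3.33 to 5.95 in Sham, 176 to 191 in C_Spinal and 111 to 121 in T_Spinal. The defining genes Ppbp and Tubb1 had no counts in C_Spinal, as had Ppbp in T_Spinal. The part of platelets in the Itga2b difference was not tested. Itga8, the alpha8 subunit, was at 4.38 to 4.49 FPKM in Sham, 5.13 to 5.41 in C_Spinal and 4.30 to 5.11 in T_Spinal. It was not called in any comparison of the main edgeR fit (0.13, SE 0.0718, adjusted p = 0.116 in C_Spinal against Sham). Its C_Spinal difference passed in edgeR with total counts as the scale (0.26, adjusted p = 0.00849) and without T_Spinal replicate 1 (0.13, adjusted p = 0.0444).

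Itga4, the alpha4 subunit of lymphocytes and monocytes, which binds Vcam1 and fibronectin, was at 0.306, 0.219 and 0.347 FPKM in Sham, 1.33, 1.16 and 1.21 in C_Spinal and 1.59, 2.22 and 1.80 in T_Spinal. It rose by 1.95 (SE 0.211, edgeR adjusted p = 1.07e-05) in C_Spinal against Sham. The further difference in T_Spinal, 0.56 (SE 0.199, adjusted p = 0.0482), lost its call without Sham replicate 1 (adjusted p = 0.0570), C_Spinal replicate 1 (0.0762), C_Spinal replicate 2 (0.119), C_Spinal replicate 3 (0.114), T_Spinal replicate 2 (0.178) or T_Spinal replicate 3 (0.0842). Itga9, the alpha9 subunit, a tenascin and osteopontin receptor, was at 2.19, 2.58 and 2.34 FPKM in Sham, 2.01, 2.13 and 2.49 in C_Spinal and 3.37, 3.28 and 3.24 in T_Spinal. Sham and C_Spinal overlapped and T_Spinal stood above both. It was higher in T_Spinal than in C_Spinal by 0.54 (SE 0.115, edgeR adjusted p = 0.00445). The difference from Sham, 0.32 (SE 0.114, adjusted p = 0.0293), lost its call without Sham replicate 1 (adjusted p = 0.0914), Sham replicate 3 (0.0683), T_Spinal replicate 1 (0.0762), T_Spinal replicate 2 (0.0657) or T_Spinal replicate 3 (0.0509). Between C_Spinal and Sham it had -0.22 (SE 0.115, adjusted p = 0.104), called without C_Spinal replicate 3 (-0.32, adjusted p = 0.0356).

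**Figure D4:**
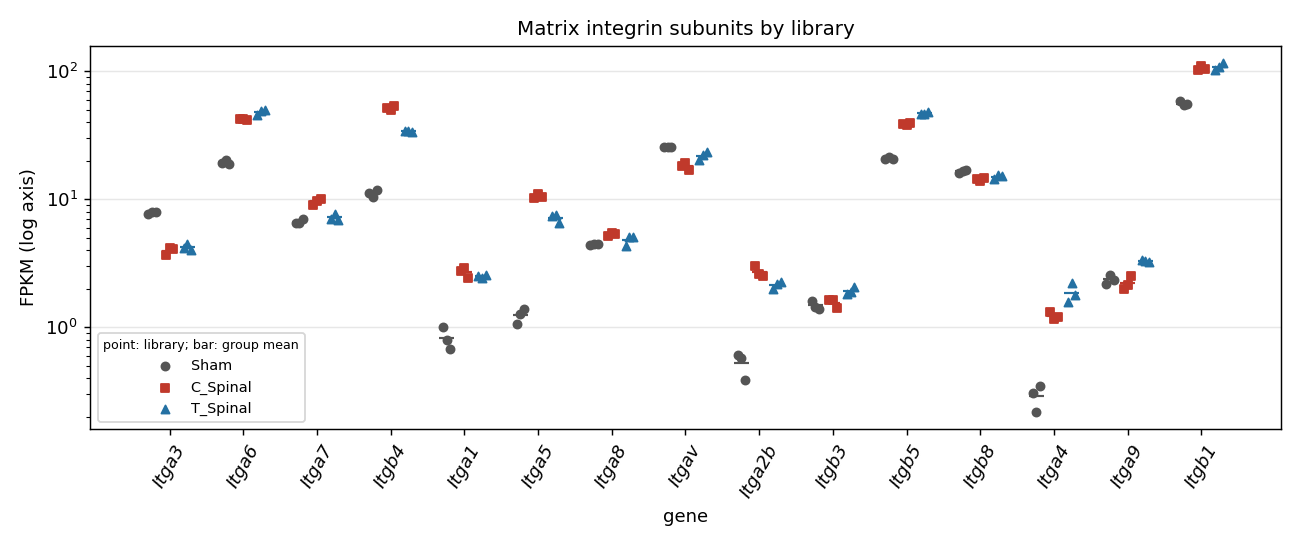
FPKM of the 15 tested matrix integrin subunits in each library, on a log axis, with points for libraries and bars for group means. Itgb1 lies highest and has overlapping injured groups, Itgb4 and Itga5 are highest in C_Spinal, Itga6 and Itgb5 are highest in T_Spinal, and Itga3 and Itgav are highest in Sham.

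Of the 5 tested leukocyte integrin subunits, 4 were higher in C_Spinal than in Sham and higher again in T_Spinal than in C_Spinal, and Itgae was not called in any comparison by edgeR. The medians of the 5 log2 fold changes were 3.43 in C_Spinal against Sham, 0.57 in T_Spinal against C_Spinal and 4.0 in T_Spinal against Sham, beside 0.02, -0.00 and -0.02 over all tested genes. Itgb2 (chr20:11777783-11815647, -), the shared beta2 subunit (CD18), was at 4.53, 4.54 and 5.04 FPKM in Sham, 54.1, 56.2 and 55.1 in C_Spinal and 86.1, 85.9 and 80.8 in T_Spinal. No library of a group overlapped another group. The difference was 3.43 (SE 0.0494, edgeR adjusted p = 3.21e-12) in C_Spinal against Sham, 0.57 (SE 0.0441, adjusted p = 6.92e-06) in T_Spinal against C_Spinal and 4.0 (SE 0.0505) in T_Spinal against Sham.

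Itgal (chr1:198744050-198781750, +) encodes alphaL (CD11a), which with beta2 forms LFA-1, the receptor for the ICAM proteins on lymphocytes and other leukocytes. It was at 1.70, 1.46 and 1.45 FPKM in Sham, 19.1, 18.8 and 19.9 in C_Spinal and 34.2, 32.7 and 32.4 in T_Spinal. Its differences were 3.53 (SE 0.0646, edgeR adjusted p = 1.35e-11), then 0.74 (SE 0.0566, adjusted p = 6.67e-06) from C_Spinal to T_Spinal. Itgam (chr1:199495298-199623960, +) encodes alphaM (CD11b) of microglia, macrophages and neutrophils, a receptor for complement fragments and fibrinogen. It was at 4.70, 4.49 and 4.83 FPKM in Sham, 15.7, 16.0 and 16.3 in C_Spinal and 30.6, 30.2 and 31.1 in T_Spinal. With 1.65 (SE 0.0342) in C_Spinal against Sham it moved least of the 4, and with 0.90 (SE 0.0332, edgeR adjusted p = 7.38e-08) in T_Spinal against C_Spinal it moved most.

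Itgax (chr1:199555722-199576932, +) encodes alphaX (CD11c) of dendritic cells and activated microglia. It was at 0.129, 0.170 and 0.204 FPKM in Sham, 4.47, 4.59 and 4.80 in C_Spinal and 7.20, 6.41 and 6.68 in T_Spinal. It had the largest fold change of the 28 tested genes, 4.66 (SE 0.142, edgeR adjusted p = 4.97e-10) in C_Spinal against Sham, and 0.51 (SE 0.115, adjusted p = 0.00601) in T_Spinal against C_Spinal. The Itgax row lies within the Itgam row on the same strand, so reads could be split between them. The values of both genes, and their ranks, shares and sums, are uncertain. Itgae (chr10:59539405-59711874, +), the alphaE subunit (CD103) of tissue T cells and dendritic cells, was at 1.28, 1.41 and 1.2 FPKM in Sham, 1.56, 1.61 and 1.39 in C_Spinal and 1.67, 1.03 and 1.34 in T_Spinal. The groups overlapped, with 0.11 (SE 0.175, adjusted p = 0.593) in C_Spinal against Sham. Its row overlaps Atp2a3, P2rx1, Camkk1 and Ncbp3 on the same strand, so its values are uncertain.

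**Figure D5:**
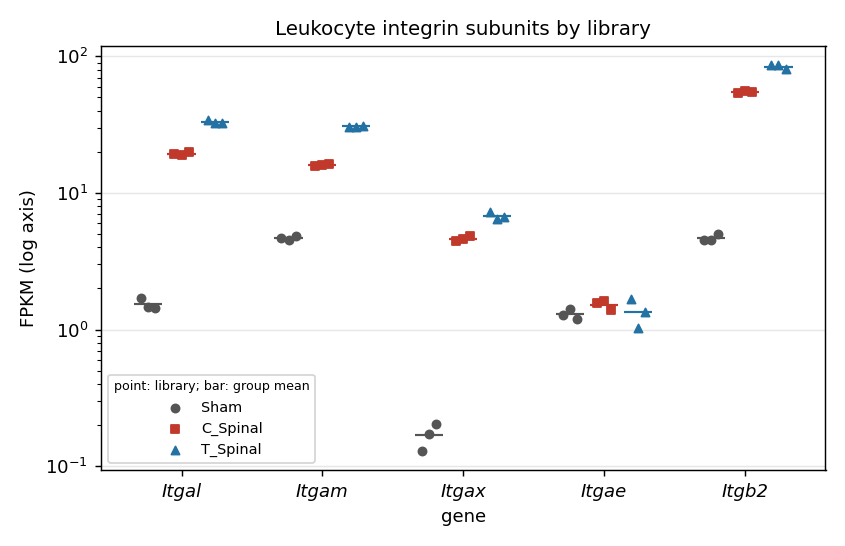
FPKM of the 5 tested leukocyte integrin subunits in each library, on a log axis, with points for libraries and bars for group means. Itgal, Itgam, Itgax and Itgb2 step up from Sham to C_Spinal and from C_Spinal to T_Spinal with no overlap, and the 3 groups of Itgae overlap.

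Among the leukocyte alpha subunits the makeup differed from Sham in both injured groups. Itgam made up 60.9% ± 1.77 (SD, n = 3) of their FPKM in Sham, against 38.6% ± 0.353 in C_Spinal and 42.7% ± 1.01 in T_Spinal. Itgal made up 19.997% ± 1.52, 46.6% ± 0.586 and 46.1% ± 0.670, and Itgax 2.19% ± 0.508, 11.2% ± 0.193 and 9.40% ± 0.337. Itgal, Itgam and Itgax summed to 6.37 ± 0.223, 39.9 ± 0.937 and 70.6 ± 1.33 FPKM, beside 4.70 ± 0.295, 55.1 ± 1.04 and 84.3 ± 3.03 for Itgb2, their shared partner. By these sums, which rest on the uncertain Itgam and Itgax values, alpha subunits exceeded Itgb2 in Sham and lay below it in both injured groups. The 6 leukocyte integrins held 6.61% ± 0.163 of all integrin FPKM in Sham, against 23.7% ± 0.223 in C_Spinal and 33.5% ± 1.34 in T_Spinal. Matrix integrins summed to 176 ± 0.639, 312 ± 3.66 and 311 ± 10.9 FPKM, and leukocyte integrins to 12.5 ± 0.309, 97.3 ± 1.70 and 156 ± 3.90. On this scale the matrix sums of the injured groups did not differ beyond their spread. The FPKM of all genes summed to 542736 to 544855 in C_Spinal and 511417 to 513003 in T_Spinal, so that comparison depends on the scale.

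Leukocyte markers moved beside these genes. Of 13 macrophage and microglia markers, 12 were higher and 1 lower in C_Spinal against Sham, and 8 were higher and 0 lower in T_Spinal against C_Spinal, with summed FPKM of 222 to 232, 4149 to 4211 and 4911 to 5042. All 4 tested T and NK cell markers were higher in C_Spinal and 1 was higher again in T_Spinal. The 12 genes of that list with a row summed to 7.72 to 9.13, 98.5 to 105 and 156 to 159 FPKM. Of these, Cd3g, Cd3d and Gzmb had no counts in Sham and Gzmb none in any group. Neutrophil markers went the other way between the injured groups: all 5 tested were higher in C_Spinal than in Sham, then 4 were lower and 1 higher in T_Spinal. All 11 listed genes summed to 3.78 to 4.91, 78.6 to 83.9 and 38.6 to 40.4 FPKM. Elane had no counts in any group. The 8 dendritic cell markers summed to 45.1 to 50.9, 96.5 to 102 and 150 to 166 FPKM, with 3 of 5 tested higher and 1 lower in C_Spinal, and 1 higher and 1 lower in T_Spinal against C_Spinal. A sum follows the most abundant genes of its list. In T_Spinal against C_Spinal the median log2 fold change was 0.05 for the tested dendritic markers and 0.21 for the tested T and NK cell markers. The part of these cells in the integrin differences was not tested.

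Of the 7 genes below the expression minimum, 6 are described: Lamb3, Itga2, Itga10, Itga11, Itgb6 and Itgb7. Itga10, a collagen receptor of cartilage, was at 0.0983 to 0.105 FPKM in Sham, 0.608 to 0.820 in C_Spinal and 0.424 to 0.811 in T_Spinal. Itgb7, the beta7 subunit of gut-homing lymphocytes, was at 0.0321 to 0.126 FPKM in Sham, 0.377, 0.490 and 1.19 in C_Spinal and 0.198 to 0.533 in T_Spinal, with C_Spinal replicate 3 far above the other two. In a fit with no minimum, edgeR called Itga10 (2.77, adjusted p = 5.17e-06), Itga11 (0.83, adjusted p = 0.0231) and Itgb7 (2.99, adjusted p = 0.00153) higher in C_Spinal than in Sham, and did not call Lamb3, Itga2 and Itgb6. None of these 6 was called in T_Spinal against C_Spinal, with adjusted p values of 0.231 to 0.868 and unadjusted values of 0.0904 to 0.721. In T_Spinal against Sham the same edgeR fit called Itga10 (2.39, adjusted p = 1.92e-05) and Itgb7 (1.94, adjusted p = 0.0197) higher. It did not call Itga11, Lamb3, Itga2 and Itgb6 there. Lamb3, a chain of epithelial laminin, lay at 0.160 to 0.348 FPKM over the 9 libraries. Itga11, a collagen receptor of fibroblasts, was at 0.217 to 0.312 FPKM in Sham, 0.438 to 0.572 in C_Spinal and 0.277 to 0.481 in T_Spinal. Itga2, a collagen receptor of platelets and epithelium, had at most 46 counts in any library, and Itgb6, an epithelial partner of alphaV, at most 34.

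Ligands of the RGD-binding, alpha4 and alpha9 integrins included some of the most abundant transcripts of the pathway. Of 10 tested of 13, 8 were higher and 2 lower in C_Spinal against Sham (median 1.33), 2 higher and 5 lower in T_Spinal against C_Spinal (median -0.33), and 8 higher and 2 lower in T_Spinal against Sham. Fn1, fibronectin, the ligand of alpha5beta1, was at 12.8, 13.7 and 13.6 FPKM in Sham, 155, 158 and 157 in C_Spinal and 99.2, 99.1 and 94.4 in T_Spinal. Its difference in C_Spinal against Sham was 3.43 (SE 0.0364), and its order of groups was that of Itga5. Spp1, osteopontin, a secreted ligand of alphaV and alpha9 integrins, was at 84.1, 81.1 and 79.7 FPKM in Sham, 731, 752 and 736 in C_Spinal and 1452, 1486 and 1506 in T_Spinal. It was 3.06 (SE 0.0315) higher in C_Spinal than in Sham and 0.97 (SE 0.0293, edgeR adjusted p = 2.24e-08) higher again in T_Spinal. Tnc, tenascin-C, rose by 3.51 (SE 0.0796) in C_Spinal and was 3.01 above Sham in T_Spinal. Vtn, vitronectin, was at 19.7, 18.5 and 19.3 FPKM in Sham, 54.9, 52.1 and 54.8 in C_Spinal and 26.4, 26.8 and 27.5 in T_Spinal, a difference of -1.04 (SE 0.0426, adjusted p = 1.42e-07) between the injured groups. Vwf, a clotting factor of endothelium and platelets, had -0.98 (SE 0.0475).

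Ligands of the leukocyte integrins did not move together. Of 9 tested of 11, 6 were higher and 3 lower in C_Spinal against Sham (median 0.65), 4 higher and 4 lower in T_Spinal against C_Spinal (median 0.09), and 8 higher and 1 lower in T_Spinal against Sham. Icam1, the ligand of LFA-1 on inflamed vessels and glia, was at 3.52, 3.20 and 3.61 FPKM in Sham, 27.4, 27.2 and 26.0 in C_Spinal and 24.1, 21.7 and 19.97 in T_Spinal, with a rise of 2.84 (SE 0.0796) in C_Spinal against Sham. Icam2, of endothelium and platelets, rose by 1.21 (SE 0.124) and had -0.81 (SE 0.123, edgeR adjusted p = 0.000634) in T_Spinal against C_Spinal. C3, the complement protein whose fragment iC3b binds alphaMbeta2, was at 39.3, 40.3 and 39.2 FPKM in Sham, 31.9, 33.2 and 32.1 in C_Spinal and 83.0, 85.2 and 82.3 in T_Spinal. It was highest in T_Spinal and lowest in C_Spinal, with 1.33 (SE 0.0299, adjusted p = 4.78e-09) between the injured groups. Icam5, a neuronal ICAM, had 1.13 (SE 0.159) in the same comparison. Cdh1, E-cadherin, the ligand of alphaEbeta7, rose by 2.27 (SE 0.0759) in C_Spinal and was 1.60 above Sham in T_Spinal. Vcam1, the ligand of alpha4beta1, was 1.34 (SE 0.0688) above Sham in T_Spinal.

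Of 28 listed integrin regulators and adaptors, 27 were tested. In C_Spinal against Sham 18 were higher and 5 lower (median 0.54). In T_Spinal against C_Spinal 9 were higher and 10 lower (median -0.04). In T_Spinal against Sham 18 were higher and 7 lower (median 0.39). Fermt3, kindlin-3, the integrin activator of blood cells, was at 3.04, 4.31 and 4.58 FPKM in Sham, 55.4, 52.2 and 57.1 in C_Spinal and 59.8, 59.8 and 58.7 in T_Spinal, and rose by 3.67 (SE 0.124) in C_Spinal. Parvg, the parvin of leukocytes, was at 2.11, 2.19 and 2.91 FPKM in Sham, 13.4, 12.5 and 13.6 in C_Spinal and 21.5, 20.03 and 19.3 in T_Spinal. It rose by 2.34 (SE 0.115) in C_Spinal and was 0.58 (SE 0.108, edgeR adjusted p = 0.00202) higher again in T_Spinal. Parva, the more widely expressed parvin, had -0.64 (SE 0.0586) in T_Spinal against C_Spinal. Fblim1, migfilin, which binds filamin at cell-matrix contacts, was at 0.502, 0.374 and 0.438 FPKM in Sham, 11.9, 10.8 and 10.7 in C_Spinal and 7.55, 7.92 and 7.18 in T_Spinal, with 4.53 (SE 0.116) in C_Spinal against Sham and -0.60 (SE 0.0969, adjusted p = 0.000941) in T_Spinal against C_Spinal.

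Ordered by mean FPKM, which is per length and so allows genes to be compared, Itgb1 was followed in Sham by Itgav (25.6), Itgb5 (20.9), Itga6 (19.6) and Lamb2 (19.1). The single libraries of Itga6 and Lamb2 overlapped, so the order of these neighbours is not resolved, while those of Itgb5 lay above both. In C_Spinal the order after Itgb1 was Lamb2 (66.8), Itgb2 (55.1), Itgb4 (51.8) and Itga6 (42.2), and in T_Spinal it was Itgb2 (84.3), Itga6 (48.3), Itgb5 (46.9) and Lamb2 (46.6). Itgb2 ranked 13 of 35 in Sham, then 3 in C_Spinal and 2 in T_Spinal. In T_Spinal the values of Itga6, Itgb5 and Lamb2 overlapped.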

How the data were processed

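Poly(A) RNA of spinal cord was sequenced in 9 stranded libraries, 3 per group. Per the submitters' processing notes, HISAT and StringTie were used, without versions. Build, annotation and whether counting used strand were not given in the sources used here. Per gene and library, the authors deposited whole-number counts and FPKM of their own, with genes at 0 counts listed at 1e-04. The test kept genes whose mean FPKM reached 1: 14791 of 32623, holding 99.7% of counts. Counts were scaled by TMM and fitted with edgeR 4.0.16 in R 4.3.3 (quasi-likelihood, all 9 libraries in a single fit, no covariate), with Benjamini-Hochberg adjustment over the tested genes, two-sided. The code was tested on simulated data. Replicate libraries differed by more than sampling noise (chi-square per degree of freedom 18.9 to 27.7). Alternatives used DESeq2 1.42.0 and limma 3.58.1 on log2(FPKM + 1). The members, gene lists and marker lists were chosen with earlier results of these data known. Of the 35 members, 34 are named and 1 is not reported here; of each partner list, up to 3 genes per comparison were named, those called with the largest absolute log2 fold change and no overlap of groups. Other genes named were chosen after their values were seen. Promoters came from RefSeq (GRCr8), whose coordinates are not those of the deposited table.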

Additional observations from a re-analysis of the deposited data

How the results depend on the processing

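Rescaling by DESeq2 size factors or total counts, DESeq2, limma and the fit of 2 groups alone tested the same 28 members. These settings gave 21 to 22 members higher and 3 to 4 lower in C_Spinal against Sham. The counts were 9 to 11 and 10 to 12 in T_Spinal against C_Spinal, and 21 to 22 and 3 in T_Spinal against Sham. Other expression filters tested all 35 members and gave 25 to 26 and 3, 8 and 10, and 24 and 3. Among the 28, a minimum fold of 2 left 17 higher and 1 lower, 0 and 1, and 18 and 1. Over all 14791 tested genes the same minimum left 2648 higher and 2271 lower, 234 and 264, and 2195 and 1929. Leaving out each library in turn gave 21 to 22 and 3 to 4, 8 to 9 and 10 to 11, and 20 to 21 and 3. With the replicate number as a block the counts were 21 and 3, 8 and 10, and 21 and 3. Same-numbered libraries did not deviate together (r of -0.08 to 0.09, and 4 of 9 libraries correlated best with their own number). No pairing by number was seen, but correlations over all genes cannot exclude a weak one. The block ended the Itga4 call in T_Spinal against C_Spinal (edgeR adjusted p = 0.0869). The Itga4 call also ended with no minimum (0.0709) and with filterByExpr (0.0538). Signs reversed for genes that were not called. Itgb3 in C_Spinal against Sham was 0.0729 with total counts, 0.0440 with limma on log2(FPKM + 1) and 0.0682 with limma on log2(FPKM + 0.1), and ran from -0.0978 to 0.0172 when each library was left out, above 0 without Sham replicate 1 or C_Spinal replicate 3. Itgb1 in T_Spinal against C_Spinal ran from -0.0390 to 0.0394 when each library was left out, below 0 without C_Spinal replicate 1, C_Spinal replicate 3 or T_Spinal replicate 3. In T_Spinal against Sham, total counts, limma with a pseudocount of 1 and limma with a pseudocount of 0.1 gave Itga7 0.11, 0.10 and 0.11, Itga8 0.12, 0.10 and 0.11, and Itgae 0.0442, 0.0212 and 0.0266. Leaving out each library moved Itga8 from -0.0774 to 0.0381, above 0 without T_Spinal replicate 1, and Itgae from -0.296 to 0.0471, above 0 without T_Spinal replicate 2. The cause was not tested. Lama5 passed in T_Spinal against C_Spinal with DESeq2 (adjusted p = 0.0214) and with 2 groups alone (0.00605). Also called at some limma setting were Itga2b (0.0384) and Itgb8 (0.0413) in T_Spinal against C_Spinal, and Itga8 (0.0108 and 0.0109) and Itga9 (0.0184) in C_Spinal against Sham, and Itga2b with 2 groups alone (0.0323). Total counts moved the median of all genes by 0.12 in C_Spinal against Sham and 0.16 in T_Spinal against Sham, where the share of calls that were higher went from 48.9% to 59.6%. A common FPKM sum moved it by 0.11 in T_Spinal against C_Spinal, where that share went from 53.6% to 75.2%. With 3 libraries per group and low counts, small differences of low genes such as Itga4, Itgae, Itgb3 and the 7 genes under the minimum were not resolved.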

Other observations

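A pair of rows described in the deposited table as laminin chains carry symbols outside the rule. The row AABR07031193, described as laminin subunit alpha 3 (chr18:3705916-3940838), was at 0.796, 0.931 and 0.783 FPKM in Sham, 1.71, 1.89 and 1.87 in C_Spinal and 1.57, 1.65 and 1.63 in T_Spinal. It was higher in C_Spinal than in Sham by 1.00 (SE 0.0892, edgeR adjusted p = 2.34e-06) and in T_Spinal than in Sham by 0.79 (SE 0.0890), and had -0.21 (SE 0.0879, adjusted p = 0.0917) in T_Spinal against C_Spinal, although the injured groups did not overlap. The row LOC102554659, described as laminin subunit gamma-3-like (chr3:9937945-9959655), was listed at 0 in Sham replicate 1 and T_Spinal replicate 3. It was at 0.588 and 0.714 FPKM in the other Sham libraries, 2.57, 2.17 and 2.78 in C_Spinal and 3.37 and 2.27 in the other T_Spinal libraries, and was not called in any comparison by edgeR.

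Itga2 lies 30.3 kb from Itga1 on the same strand in the coordinates of the deposited table, and of this pair Itga1 alone passed the expression minimum. Lamb4, Itgad and Lama3 by symbol were not analysed here.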
